A study of Mus musculus with 20 samples.

Results

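Transcription factors that set cell identity in the nephron, or return during its repair, were followed in whole kidneys of mice, in a study of how telomerase contributes to glomerular repair. The 8 genes, Sox9, Sox4, Sox11, Lhx1, Hnf4a, Pou3f3, Emx2 and Cited1, were chosen by symbol, with earlier results of these data known. Each matched 1 of the 55471 rows of the gene count table. RNA was sequenced from 20 female mice labelled 2 months old, 1 library per mouse.

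In the ADR experiment, on a Balb/c background, mice of the genotypes TERT WT/WT and TERT KO/KO were injected 1 time intravenously with saline or with 12 mg/kg of adriamycin (ADR, or doxorubicin, which damages podocytes), and kidneys were taken 18 days later. TERT encodes the catalytic subunit of telomerase, and the knockout was constitutive, so every cell of TERT KO/KO mice carried it; the study's methods describe the TERT WT/WT mice as littermates. Of the TERT WT/WT mice 4 received saline and 3 ADR, and of the TERT KO/KO mice 3 received saline and 3 ADR. In the other experiment, on a mixed background, 3 i-TERTci mice (actin-rtTA+;tetOp-TERTci+) and 4 actin-rtTA+ control mice all drank doxycycline for 15 days and were killed 8 days after it was withdrawn. The first transgene carries the doxycycline-dependent activator and the second a catalytically inactive TERT, expressed throughout the body and not only in the kidney, and the mice were heterozygous for each transgene. Experiment, strain and treatment cannot be told apart between the 2 experiments, so levels were tested only within each.

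During kidney development, mesenchymal progenitors that express Cited1 condense, turn into epithelium and are patterned along the tubule. Lhx1, a LIM homeodomain factor, acts in the early renal vesicle and the ureteric bud, Pou3f3 (Brn1) in the formation of the loop of Henle and distal tubule, and Emx2 in the ureteric bud. Hnf4a, a nuclear receptor, is required for the maturation of the proximal tubule. Sox4, Sox9 and Sox11 are HMG-box factors of developing epithelia, and Sox9 is known to return in injured and repairing adult tubule.

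Levels are given as CPM, a gene's counts set to a common library total and scaled by TMM factors, which correct for differences in library composition. Libraries held between 39323498 and 48399322 counts. The second library with the label TERT KO/KO ADR was liver-like: its 15 hepatocyte markers summed to 834048 CPM, against at most 293.5 CPM in the other 19 libraries, and the podocyte gene Nphs1 had 2 counts. It was left out of the group means and the main tests, which leaves 2 TERT KO/KO ADR mice, and results with it are given beside those they touch. Tert itself had 51 to 210 counts in the other TERT KO/KO libraries and 122 to 379 in TERT WT/WT libraries, so gene counts did not separate the genotypes, and where in the gene these reads lie was not examined. In i-TERTci mice it had 1070, 1086 and 230 counts, against 87 to 164 in actin-rtTA+ mice. In whole-kidney RNA, fewer cells of a type and less RNA per cell cannot be told apart.

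Across the 19 kidney libraries the level per kilobase of exon was highest for Hnf4a, at a mean of 146 CPM per kb. Pou3f3 followed at 18.4, Emx2 at 14.2 and Sox4 at 13.6 CPM per kb. Lhx1 stood at 4.18, Sox9 at 1.49, Cited1 at 0.676 and Sox11 at 0.308 CPM per kb. The 3 Sox genes and Cited1 varied most between libraries: the highest library exceeded the lowest by 74.8 times for Sox9, 40.5 times for Sox11, 27.0 times for Cited1 and 6.34 times for Sox4. The same ratio was 3.24 for Hnf4a, 3.11 for Lhx1, 2.22 for Emx2 and 1.85 for Pou3f3.

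**Figure D1:**
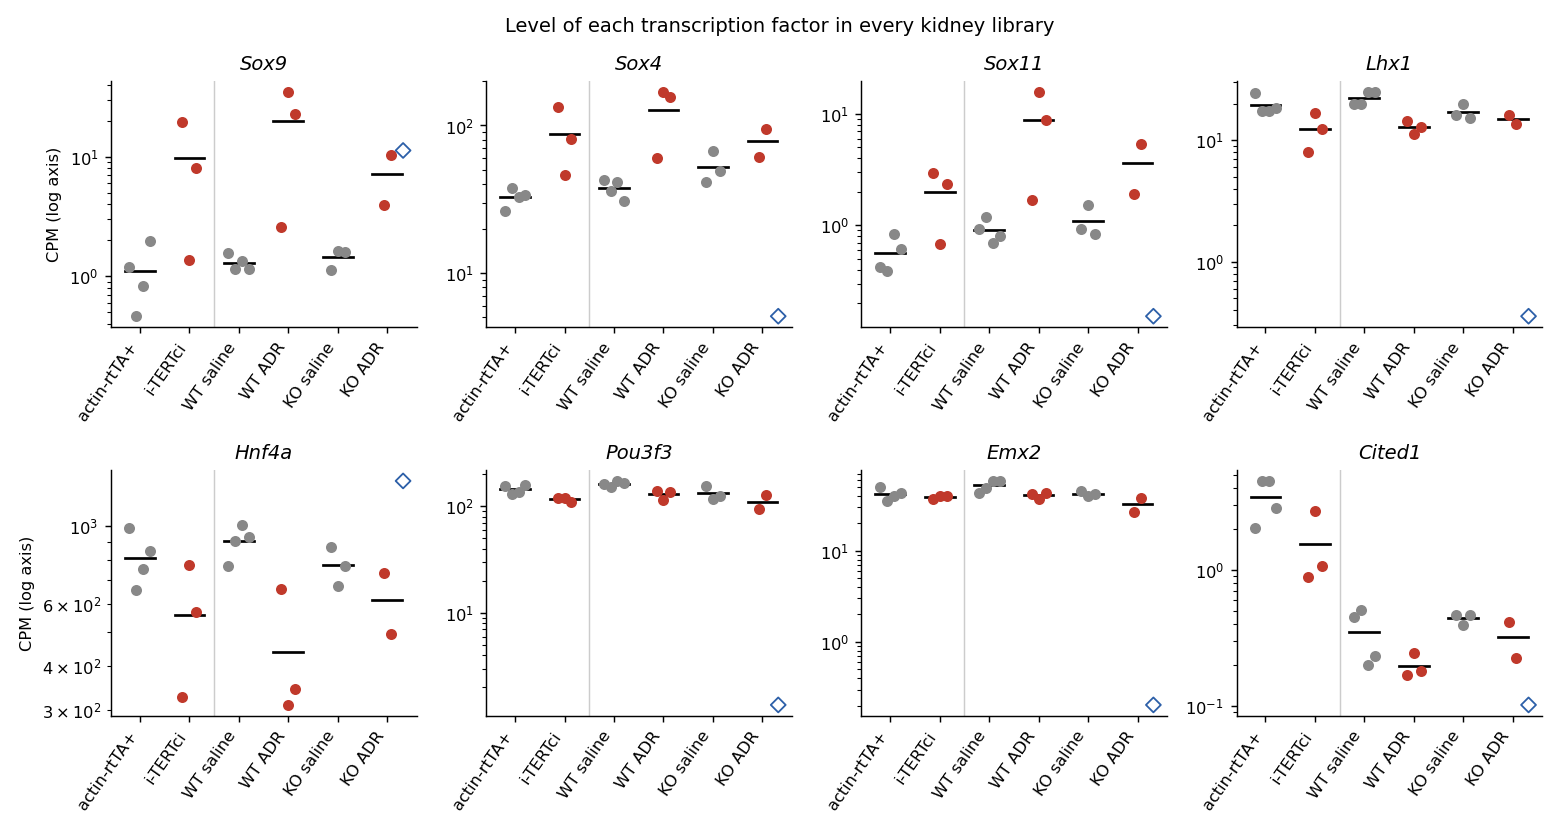
Level of each gene in CPM (log axis) in all 20 libraries by group, with 1 point per mouse and a black line at the group mean; grey points are control or saline mice, red points are i-TERTci or ADR mice, and the open diamond is the liver-like library, which is not in the mean. Sox9, Sox4 and Sox11 were higher in all 3 TERT WT/WT ADR mice than in any TERT WT/WT saline mouse, while the highest kidney library exceeded the lowest by only 1.85 times for Pou3f3 and 2.22 times for Emx2.

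The genes lie on 7 chromosomes (GRCm38, GENCODE M21): Sox9 at chr11:112782224-112787760 and Lhx1 at chr11:84518284-84525535, Sox4 at chr13:28948919-28953713, Sox11 at chr12:27334264-27342574, Hnf4a at chr2:163506808-163572910, Pou3f3 at chr1:42695768-42703176, Emx2 at chr19:59458372-59465357 and Cited1 at chrX:102247381-102252181. Sox4, Sox11 and Pou3f3 are annotated with 1 exon block each. The strand setting used for counting is not given in the sources used here, so reads of an overlapping antisense gene could not be told apart: Gm26735 overlaps the exon of Sox4 by 2616 bp on the opposite strand, and Emx2os overlaps exons of Emx2 by 264 bp. Hnf4aos lies across the first part of Hnf4a with no shared exon base.

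Promoter windows from RefSeq (GRCm38.p6, 250 bases before to 50 after a start) matched 7 of the 8 genes. Those shown belong to Sox4 and Sox11, which were higher after ADR, and to Lhx1 and Hnf4a, which were lower; Hnf4a has 2 starts, the downstream one known as the start used in adult liver and kidney. Capitals mark every match, on either strand, to 6 short motifs, so a CCAAT on the other strand reads ATTGG.

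Sox4 (chr13:28953650-28953949, minus strand): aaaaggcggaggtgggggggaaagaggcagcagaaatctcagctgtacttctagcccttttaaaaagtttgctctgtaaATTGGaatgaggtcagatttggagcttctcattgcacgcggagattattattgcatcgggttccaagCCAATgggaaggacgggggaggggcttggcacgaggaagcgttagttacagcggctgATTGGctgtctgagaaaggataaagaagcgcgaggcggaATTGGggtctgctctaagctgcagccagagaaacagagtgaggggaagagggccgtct
Sox11 (chr12:27342669-27342968, minus strand): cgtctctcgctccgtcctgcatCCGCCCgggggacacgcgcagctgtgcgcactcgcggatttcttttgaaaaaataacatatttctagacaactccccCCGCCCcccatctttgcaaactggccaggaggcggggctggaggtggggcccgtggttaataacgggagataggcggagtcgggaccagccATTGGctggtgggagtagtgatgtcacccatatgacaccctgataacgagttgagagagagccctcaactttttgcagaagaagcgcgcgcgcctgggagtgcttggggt
Lhx1 (chr11:84525485-84525784, minus strand): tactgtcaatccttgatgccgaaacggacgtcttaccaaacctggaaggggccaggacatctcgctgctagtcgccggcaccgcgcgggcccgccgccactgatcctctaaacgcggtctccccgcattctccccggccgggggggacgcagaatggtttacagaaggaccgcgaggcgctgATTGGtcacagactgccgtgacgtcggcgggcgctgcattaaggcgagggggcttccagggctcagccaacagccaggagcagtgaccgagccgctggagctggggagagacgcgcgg
Hnf4a, upstream start (chr2:163506607-163506906, plus strand): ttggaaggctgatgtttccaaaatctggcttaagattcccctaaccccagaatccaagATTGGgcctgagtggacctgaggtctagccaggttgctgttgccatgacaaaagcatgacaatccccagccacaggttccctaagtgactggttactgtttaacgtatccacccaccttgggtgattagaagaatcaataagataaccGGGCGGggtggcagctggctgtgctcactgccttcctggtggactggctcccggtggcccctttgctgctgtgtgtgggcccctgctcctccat
Hnf4a, downstream start (chr2:163546905-163547204, plus strand): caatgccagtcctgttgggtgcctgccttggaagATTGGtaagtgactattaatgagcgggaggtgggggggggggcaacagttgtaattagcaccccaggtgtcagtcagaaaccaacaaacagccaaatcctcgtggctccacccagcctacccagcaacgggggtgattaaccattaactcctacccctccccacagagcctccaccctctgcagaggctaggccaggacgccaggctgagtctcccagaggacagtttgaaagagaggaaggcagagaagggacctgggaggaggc

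The motifs were CCAAT of the factor NF-Y, the GC box GGGCGG, the TATA box TATAAA, the HNF4 factors' CAAAGT, the letters AACAAT of the SOX factors, and TGANTCA of AP-1. The Sox4 window held 4 CCAAT matches, 171, 104, 47 and 8 bases before the start. The Sox11 window held 1 CCAAT and 2 GC boxes, and the Lhx1 window 1 CCAAT. The downstream Hnf4a window held 1 CCAAT, and the upstream window 1 CCAAT and 1 GC box. Of 32851 promoter windows of this length, 37.4% held CCAAT, 35.7% GGGCGG, 13.6% TATAAA, 14.4% CAAAGT, 10.7% AACAAT and 7.81% TGANTCA. Each match is a string of letters and not a measured binding site.

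The first comparison asked how the 8 genes stood 18 days after ADR in mice with intact TERT. The 3 Sox genes rose, and Lhx1 and Hnf4a fell. Differences were called at an adjusted p under 0.05 by edgeR's quasi-likelihood test over all 19023 genes tested. By that rule 5 of the 8 genes were called, and 27.1% of all genes tested. Of the 5 genes, 3 were higher and 2 lower, against 15.2% and 12% of all genes tested. Because the 8 genes were chosen with earlier results of these data known, these shares are no test of enrichment.

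Sox9, the injury-induced HMG-box factor, stood at 2.57, 34.7 and 22.8 CPM in TERT WT/WT ADR mice 1, 2 and 3. The 4 saline mice lay between 1.14 and 1.57 CPM. The groups did not overlap, and mouse 1 was far closer to saline than mice 2 and 3. Sox9 had the largest fold change of the 8 genes, with a log2 fold change of 3.98 (SE 0.65; adjusted p = 0.00243, edgeR).

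Sox4, like Sox11 a member of the SoxC group of HMG-box factors, stood at 60.1, 168 and 155 CPM after ADR. Saline mice held 31.0 to 42.6 CPM. Again mouse 1 was the lowest of its group and still above every saline mouse. The log2 fold change was 1.79 (SE 0.31; adjusted p = 0.00312, edgeR).

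Sox11, which is scarce in the adult kidney, stood at 1.70, 15.7 and 8.89 CPM after ADR, from 71 to 705 counts. In saline mice it held 0.689 to 1.19 CPM, from 31 to 56 counts. All 3 ADR mice lay above the saline mice, with mouse 1 the closest to them. The log2 fold change was 3.30 (SE 0.60; adjusted p = 0.00376, edgeR).

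Lhx1 stood at 14.3, 11.2 and 12.8 CPM after ADR and at 20.1, 19.7, 24.8 and 24.9 CPM in saline. Here the 3 ADR mice lay close together and below every saline mouse. Lhx1 fell by 0.79 on the log2 scale (SE 0.14; adjusted p = 0.00308, edgeR).

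Hnf4a stood at 662, 310 and 344 CPM after ADR and at 771, 906, 1006 and 931 CPM in saline. The groups did not overlap, with mouse 1 between mice 2 and 3 and the saline mice. Hnf4a fell by 1.03 on the log2 scale (SE 0.25; adjusted p = 0.0112, edgeR). That call was lost without ADR mouse 2 (adjusted p = 0.0683) or ADR mouse 3 (adjusted p = 0.0508, edgeR).

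The other 3 genes did not pass the test. Pou3f3 had 115 to 138 CPM after ADR and 151 to 173 CPM in saline, groups that did not overlap, with a log2 fold change of -0.31 (SE 0.14; adjusted p = 0.116, edgeR). Emx2 had 37.2 to 43.3 CPM after ADR and 42.9 to 58.2 CPM in saline, with a log2 fold change of -0.34 (SE 0.14; adjusted p = 0.102). It was called without saline mouse 1 (adjusted p = 0.0476, edgeR). Cited1, the progenitor gene, was near the lower end of what was counted, with 7 to 11 counts after ADR and 9 to 24 in saline, and its log2 fold change was -0.80 (SE 0.42; adjusted p = 0.175, edgeR). By non-overlapping groups, 6 of the 8 genes were set apart, against 33.8% of all genes tested. DESeq2 called the same count of 5 genes, beside 31% of all genes, and limma with voom quality weights called 7, beside 48.6%, Pou3f3 (adjusted p = 0.0191) and Emx2 (adjusted p = 0.0148) among them.

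When the liver-like library entered the fit as a TERT KO/KO ADR mouse, Sox9 was the only one of the 8 genes called in TERT WT/WT mice, with a log2 fold change of 3.98 as before and a larger error (SE 0.68; adjusted p = 0.0124, edgeR). The share of all genes called then fell to 4.82%. Sox4 had an adjusted p of 0.141 in that fit, Sox11 0.0511, Lhx1 0.561 and Hnf4a 0.134.

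**Figure D2:**
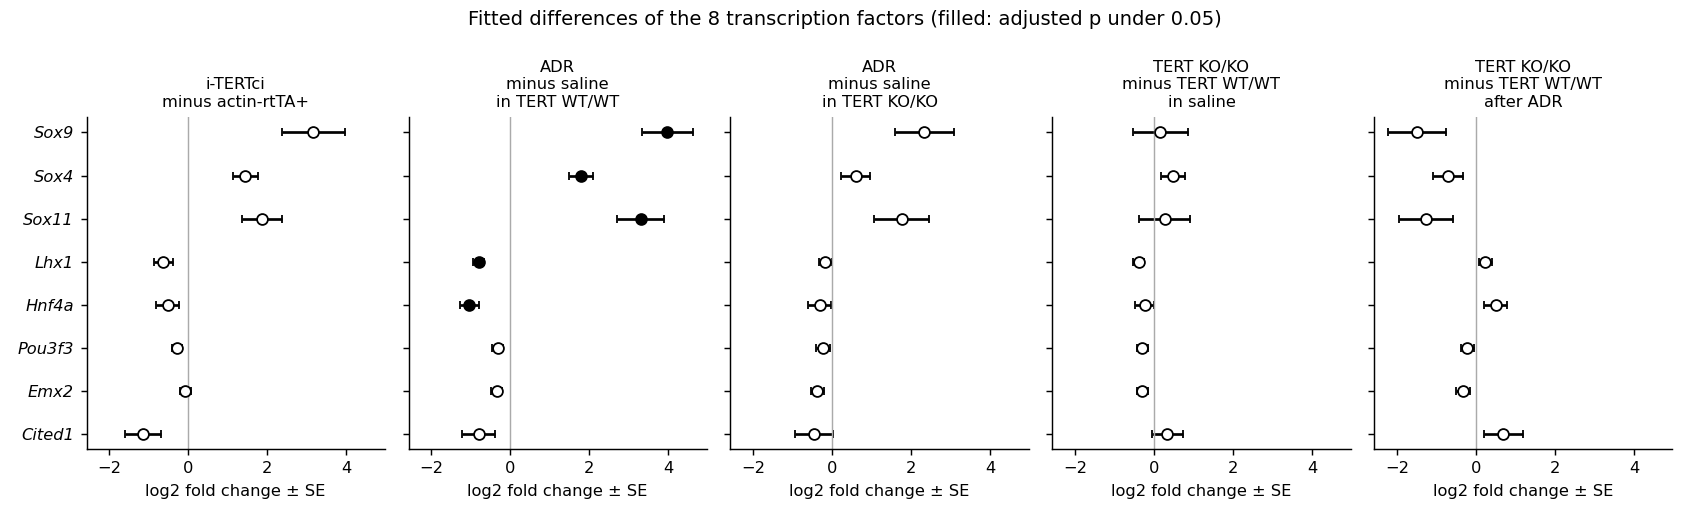
Fitted log2 fold change of each gene with its standard error (horizontal bar) in 5 comparisons, without the liver-like library; filled points passed an adjusted p under 0.05 and open points did not. The 5 filled points, Sox9, Sox4, Sox11, Lhx1 and Hnf4a, all belong to ADR against saline in TERT WT/WT mice.

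Genes of the programmes in which these factors act were counted by list, with the median log2 fold change of all genes tested at 0.01. The lists too were chosen with earlier results of these data known, so their counts are descriptions. Of 27 proximal tubule differentiation genes, the setting in which Hnf4a acts, 13 were lower after ADR at TERT WT/WT and none was higher, with a median log2 fold change of -1.0, and 24 were lower without ADR mouse 1. The 4 most abundant genes of the list were not called; Slc34a1, the main phosphate cotransporter, had a mean of 1890 CPM after ADR and 4970 CPM in saline (adjusted p = 0.0610, edgeR).

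Of 20 loop of Henle and distal tubule genes, 9 fell and none rose (median -0.44), and without ADR mouse 1, 11 fell and 3 rose. Egf, made in the distal convoluted tubule, fell by 1.53 on the log2 scale (adjusted p = 0.00327), and Slc12a3, the thiazide-sensitive cotransporter, by 0.62 (adjusted p = 0.0298, edgeR). Umod, the major thick limb product, had a log2 fold change of 0.21 (adjusted p = 0.573). Of 20 collecting duct and ureteric genes, 4 fell and none rose (median -0.13), with 6 lower and none higher without ADR mouse 1, and the water channel Aqp2 had a log2 fold change of -0.10 (adjusted p = 0.823, edgeR).

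Of 25 genes of injured and repairing tubule, 22 rose and none fell (median 1.62). Spp1, osteopontin, rose by 3.35 on the log2 scale, Clu, clusterin, by 2.50, Cd24a by 1.42 and Havcr1, the injury receptor KIM-1, by 1.59, with adjusted p from 9.30e-04 to 0.0159 (edgeR). Of 14 nephron progenitor genes tested, 4 fell and none rose (median -0.35). These were Sall1, which fell by 0.41, Meox1 by 0.57, Itga8 by 1.30 and Wt1 by 1.13. Wt1 is also in the list of podocyte markers given below. Of 18 early nephron patterning genes 2 rose and 4 fell (median 0.02), or 4 and 5 without ADR mouse 1: Pax8 rose by 0.48 (adjusted p = 0.0224) and Papss2 fell by 1.41 (adjusted p = 0.0119, edgeR). With the liver-like library in the fit, 11 injured tubule genes and 1 progenitor gene were called, and no patterning, proximal, loop or collecting duct gene.

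**Figure D3:**
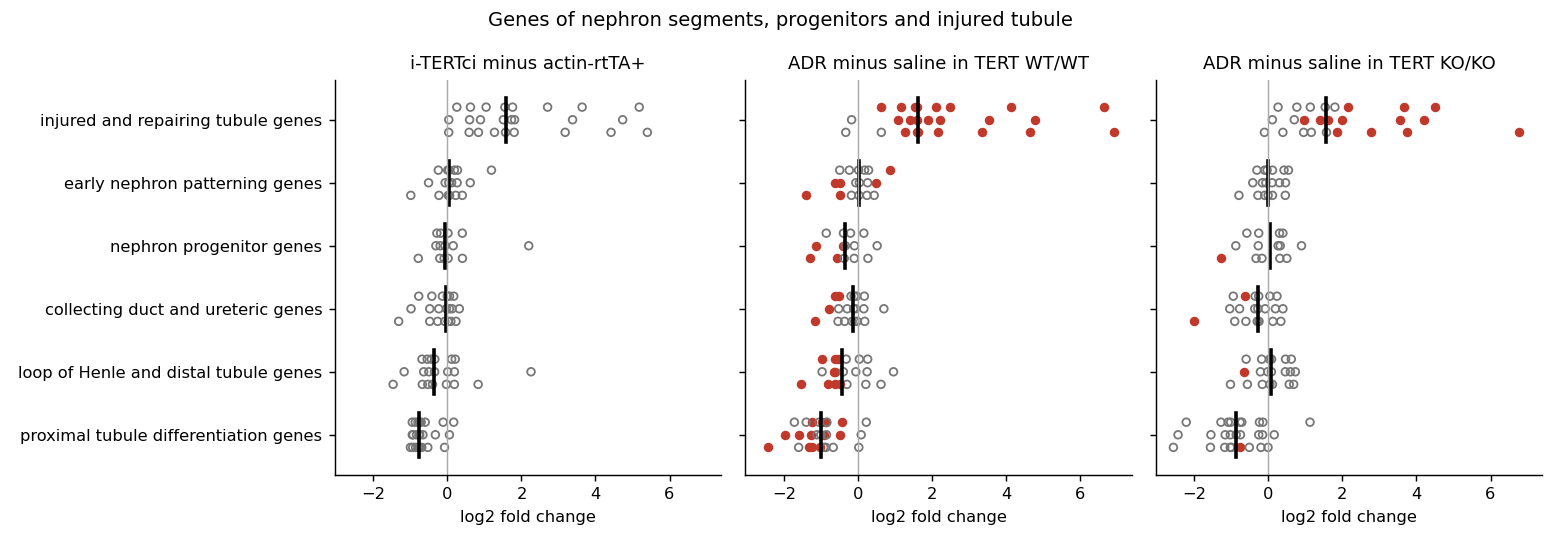
Log2 fold change of each tested gene of 6 lists in 3 comparisons, without the liver-like library; each circle is a gene, filled red where the adjusted p was under 0.05, the vertical position within a list only spreads the points, and the black bar is the list's median. After ADR in the TERT WT/WT genotype the median was 1.62 for injured tubule genes and -0.44 for loop and distal genes. Both lists held genes on either side of 0.

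Close relatives of the 8 genes were counted as well. Of 10 other Sox genes tested, none rose and 2 fell: Sox6 by 0.57 (adjusted p = 0.00617) and Sox13 by 0.32 (adjusted p = 0.0276, edgeR). Without ADR mouse 1, 2 Sox genes were called higher and 2 lower. Among 15 other relatives, Rxra, a nuclear receptor, fell by 0.61, Emx1 fell by 0.62, and Ldb1, a cofactor of LIM homeodomain proteins, rose by 0.35. Hnf4g, the paralog of Hnf4a, had a log2 fold change of 0.09 (adjusted p = 0.812, edgeR). Lhx2 and Lhx5 were called higher at very low levels: Lhx2 averaged 0.354 CPM after ADR and 0.0167 CPM in saline, and Lhx5 0.452 and 0.0299 CPM, with at most 29 and 38 counts in any kidney library. The 6 antisense or divergent neighbours tested were Emx2os, Pantr1, Pantr2, Hnf4aos, Lhx1os and Cdkal1, the last not within 10000 bp of any of the 8 genes. None was called by edgeR or DESeq2 or had an unadjusted p under 0.05. Hnf4aos had a log2 fold change of -0.85 (SE 0.49; adjusted p = 0.210, edgeR). Gm26735, which overlaps Sox4, and BC006965, 248 bp from Sox9 on the opposite strand, were not in this list. Without ADR mouse 1, edgeR called 3 of the 6 neighbours lower.

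Markers of other cell types and of dividing cells moved with these genes in the same mice. Macrophage markers, 9 of 10 of which rose, summed to 341 to 730 CPM after ADR and 177 to 232 CPM in saline. All 10 cell cycle genes rose, with sums of 91.4 to 173 CPM against 49.0 to 54.0 CPM. Fibroblast and pericyte markers, of which 6 of 9 rose and 1 fell, summed to 643 to 1258 CPM against 343 to 413 CPM. Podocyte markers, of which 9 of 12 fell and 1 rose, summed to 309 to 725 CPM against 853 to 965 CPM, and proximal tubule markers, of which 4 of 10 fell, to 4922 to 22728 CPM against 25311 to 29317 CPM. Of the other lists of kidney and immune cells, 5 of 6 parietal epithelium, 2 of 9 T and B cell and 1 of 5 neutrophil markers rose. Those that fell were 5 of 8 endothelial, 3 of 8 collecting duct, 2 of 4 distal convoluted tubule and 2 of 6 thick ascending limb markers. Without ADR mouse 1, 10 proximal tubule, 8 endothelial and 5 collecting duct markers were called lower. With the liver-like library in the fit, 6 macrophage, 9 cell cycle and 2 fibroblast markers were called higher, and no podocyte or proximal tubule marker was called. No gene of the podocyte, proximal tubule, macrophage and cell cycle lists was at 0 in these mice. ADR mouse 1 had the highest proximal tubule and podocyte sums of its group and the lowest macrophage and cell cycle sums, and its Nphs1 level was 30.8 CPM, against 3.71 and 2.77 CPM in mice 2 and 3 and 29.1 to 38.2 CPM in saline. The part of these cell types in the changes of the 8 genes was not tested.

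The spread among ADR mice was shared by several genes. ADR mouse 1 was the closest of its group to the saline mean for 6 of the 8 genes, all but Emx2 and Cited1. Without it, Sox9 rose by 4.50 on the log2 scale, Sox11 by 3.79 and Sox4 by 2.13, Hnf4a fell by 1.43 and Lhx1 by 0.86, and the same count of 5 genes was called, against 41.2% of all genes.

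**Figure D4:**
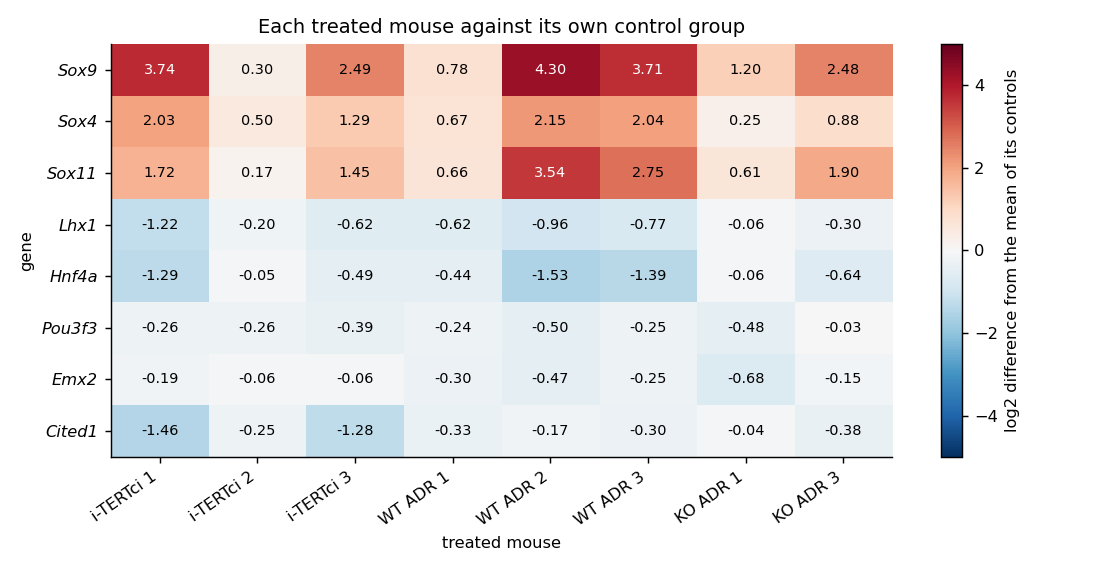
Difference of log2(CPM + 0.5) of each treated mouse (columns) from the mean of its own control group, for each gene (rows), with the value in each cell and on the colour scale; the liver-like library is not shown. i-TERTci mouse 2, TERT WT/WT ADR mouse 1 and TERT KO/KO ADR mouse 1 were the palest of their groups in the 3 Sox rows, with Sox9 differences of 0.30, 0.78 and 1.20.

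The next comparison asked the same of ADR in TERT KO/KO mice. None of the 8 genes was called in the 2 TERT KO/KO ADR mice that remained, by edgeR, where 5.26% of all genes tested were called. At an unadjusted p under 0.05 there were 2 genes, Sox9 and Sox11, against 24.1% of all genes. DESeq2 called 1 of the 8, Sox9 (adjusted p = 0.0455), and 11.5% of all genes. Limma with voom quality weights called none of the 8 and 8.2% of all genes.

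Sox9 stood at 3.95 and 10.3 CPM in ADR mice 1 and 3 and at 1.14 to 1.62 CPM in saline, so the groups did not overlap; the log2 fold change was 2.33 (SE 0.75; adjusted p = 0.0889, edgeR). Sox11 stood at 1.89 and 5.35 CPM against 0.830 to 1.53 CPM, again without overlap (log2 fold change 1.76, SE 0.70; adjusted p = 0.151, edgeR). Sox4 stood at 61.2 and 95.0 CPM, and saline mouse 2, at 67.5 CPM, lay between them (log2 fold change 0.60, SE 0.37; adjusted p = 0.337, edgeR). In these genes mouse 3 was the higher one each time.

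Hnf4a stood at 735 and 494 CPM in the 2 ADR mice and 675 to 871 CPM in saline, and Lhx1 at 16.2 and 13.7 CPM against 15.3 to 20.1 CPM. For both genes mouse 1 lay within the saline range and mouse 3 below it. The log2 fold changes were -0.31 for Hnf4a (SE 0.29; adjusted p = 0.542) and -0.17 for Lhx1 (SE 0.17; adjusted p = 0.554, edgeR). Emx2, at 26.3 and 38.1 CPM against 39.8 to 45.4 CPM in saline, did not overlap between groups (log2 fold change -0.37, SE 0.17; adjusted p = 0.217, edgeR). Pou3f3 and Cited1 overlapped. Non-overlapping groups are common with 2 mice against 3, at 42.3% of all genes tested and 3 of these 8.

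In the liver-like library, Sox9 had 222 counts (11.3 CPM) and Hnf4a 26361 counts (1341 CPM), while Sox4 had 100 counts and the other 5 genes 2 to 27. With it in the fit, none of the 8 was called in TERT KO/KO mice (1.59% of all genes), with 1 at an unadjusted p under 0.05 (24.6% of all genes), and the log2 fold change of Hnf4a turned from -0.31 to 0.22 (adjusted p = 0.743, edgeR) while that of Sox4 went to 0.06.

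The fit shares its spread between groups, so the TERT WT/WT mice also set the TERT KO/KO standard errors. Without TERT WT/WT ADR mouse 1, Sox9 (adjusted p = 6.45e-04) and Sox11 (adjusted p = 0.0120) were called in TERT KO/KO mice with the same fold changes, beside 17.9% of all genes (edgeR).

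Of 25 injured tubule genes 13 rose in TERT KO/KO ADR mice and none fell (median 1.57), Spp1 by 2.78 on the log2 scale (adjusted p = 0.0108, edgeR). Proximal tubule differentiation genes had a median log2 fold change of -0.87, with 1 of 27 called lower by edgeR and 6 by DESeq2. Of 14 progenitor genes 1 fell, of 20 loop and distal genes 1 and of 20 collecting duct genes 2, and no patterning gene, Sox relative or antisense neighbour was called by edgeR (at an unadjusted p under 0.05 there were 5, 1 and 1, and DESeq2 called 1, 0 and 0). Without TERT WT/WT ADR mouse 1 the calls by edgeR were 19 injured tubule genes higher, and 17 proximal tubule, 5 collecting duct and 3 progenitor genes and 1 antisense neighbour lower. In that fit 2 loop and distal genes were higher and 4 lower, and 2 patterning genes were higher and 1 lower. With the liver-like library 3 injured tubule genes were called higher, and 1 progenitor and 1 collecting duct gene lower.

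Markers of other cell types moved in the same 2 mice. All 10 cell cycle genes rose. Fibroblast and pericyte markers, of which 4 of 9 rose, summed to 766 and 1327 CPM in ADR mice 1 and 3 against 380.0 to 429 CPM in saline. Macrophage markers, of which 2 of 10 rose, summed to 198 and 572 CPM against 182 to 222 CPM, with 6 called by DESeq2 and 7 by edgeR without TERT WT/WT ADR mouse 1. Podocyte markers, of which 2 of 12 fell, summed to 652 and 482 CPM against 789 to 885 CPM. Proximal tubule markers summed to 13052 and 9730 CPM against 24962 to 32384 CPM. Of these 10 markers edgeR called none and DESeq2 called 4 lower. With the liver-like library 9 cell cycle genes and 1 macrophage marker were called, and no fibroblast or podocyte marker. The part of these lists in the values of the 8 genes was not tested.

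The third question was whether the 8 genes differed between genotypes. In saline none was called by edgeR, which called 1 of all genes (0.00526%). At an unadjusted p under 0.05 there was 1 of the 8, Lhx1, against 8.79% of all genes. DESeq2 called none of the 8 (0.116% of all genes), and limma with voom quality weights called 3 lower, Lhx1, Pou3f3 and Emx2 (11.8% of all genes). Lhx1 had 15.3 to 20.1 CPM in TERT KO/KO saline mice and 19.7 to 24.9 CPM in TERT WT/WT saline mice, with a log2 fold change of -0.39 (SE 0.14; adjusted p = 0.564, edgeR). The ranges of all 8 genes overlapped between the genotypes in saline, while 12.9% of all genes had ranges that did not.

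After ADR, the 3 Sox genes had lower means in TERT KO/KO than in TERT WT/WT mice and Hnf4a a higher one, and the ranges of all 8 genes overlapped. Ranges that did not overlap made up 16.8% of all genes. None of the 8 was called by edgeR (0.0736% of all genes), by DESeq2 (0.725%) or by limma with voom quality weights (0.021%), and none had an unadjusted p under 0.05 in edgeR (7.66% of all genes). Sox9 averaged 7.14 ± 4.50 CPM (SD, n = 2) against 20.0 ± 16.2 CPM (SD, n = 3), with a log2 fold change of -1.49 (SE 0.74; adjusted p = 0.672, edgeR). Sox4 had a log2 fold change of -0.71 (SE 0.38), Sox11 of -1.27 (SE 0.69) and Hnf4a of 0.50 (SE 0.29). This comparison depended on single mice in both groups. TERT WT/WT ADR mouse 1 was the closest of its group to saline for 6 of the 8 genes. TERT KO/KO ADR mouse 1 was too, and lay within the saline range for 4. Over each library left out, the log2 fold change ran from -2.35 to -0.84 for Sox9 and -1.06 to -0.43 for Sox4. It ran from -2.21 to -0.56 for Sox11 and 0.18 to 0.90 for Hnf4a. Without TERT WT/WT ADR mouse 1, edgeR called Sox9 (-2.01, adjusted p = 0.0111), Sox4 (-1.06, adjusted p = 0.0300) and Sox11 (-1.76, adjusted p = 0.0417) lower. Hnf4a (0.90, adjusted p = 0.0276) was called higher, beside 4.12% of all genes. TERT WT/WT ADR mouse 1 was singled out by these same values, and leaving it out widens the difference. These calls are therefore no separate evidence of a genotype difference.

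Whether ADR acted to a different extent in the 2 genotypes was tested as an interaction. None of the 8 genes and none of the 19023 genes tested was called by edgeR (0%), with 12% of all genes at an unadjusted p under 0.05 and 0.725% called by DESeq2. For Sox4 the log2 effect in TERT KO/KO minus that in TERT WT/WT was -1.19 (SE 0.49; unadjusted p = 0.0319, adjusted p = 0.380, edgeR), and for Lhx1 it differed by 0.62 (SE 0.21; unadjusted p = 0.0130, adjusted p = 0.338, edgeR). Sox9 differed by -1.65 (SE 1.00), Sox11 by -1.54 (SE 0.93) and Hnf4a by 0.72 (SE 0.38). At an unadjusted p under 0.05 there were these 2 of the 8, Sox4 and Lhx1. DESeq2 and limma with voom quality weights called none of the 8, the latter beside 0.0473% of all genes. Without TERT WT/WT ADR mouse 1, edgeR called Sox9, Sox4 and Hnf4a, with adjusted p of 0.0423, 0.0284 and 0.0438, beside 1.71% of all genes. The same limit holds here, as that mouse was singled out by its values in these genes. With the liver-like library edgeR called none of the 8 and none of all genes (0%) in saline, after ADR or in the interaction. At an unadjusted p under 0.05 there were 0, 1 and 1 of the 8, against 3.01%, 14.8% and 12.9% of all genes.

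The last comparison asked how the genes stood after a pulse of catalytically inactive TERT. The 3 Sox genes had higher means in i-TERTci than in actin-rtTA+ mice, and Lhx1, Hnf4a and Cited1 lower ones, with a wide spread among the 3 i-TERTci mice. By edgeR none of the 8 was called, beside 1 of 17745 genes tested (0.00564%). At an unadjusted p under 0.05 there were 5 of the 8, against 22.4% of all genes. DESeq2 called 3 of the 8, the Sox genes, beside 10.9% of all genes, and limma with voom quality weights called all but Emx2, beside 34%.

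Sox9 stood at 19.7, 1.37 and 8.02 CPM in i-TERTci mice 1, 2 and 3 and at 0.464 to 1.96 CPM in actin-rtTA+ mice. Mouse 2 lay within the control range and mice 1 and 3 well above it. The log2 fold change was 3.17 (SE 0.79; adjusted p = 0.0845, edgeR).

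Sox4 stood at 134, 46.2 and 80.4 CPM against 26.5 to 37.9 CPM, and here all 3 i-TERTci mice were above the controls (log2 fold change 1.45, SE 0.32; adjusted p = 0.0758, edgeR). Sox11 stood at 2.95, 0.683 and 2.36 CPM against 0.386 to 0.827 CPM, with mouse 2 again within the control range (log2 fold change 1.87, SE 0.51; adjusted p = 0.0935, edgeR). The order of the mice, 1 above 3 above 2, was that of Sox9.

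Hnf4a stood at 327, 775 and 571 CPM against 655 to 984 CPM, so the order of the mice was turned around and mouse 2 was within the control range (log2 fold change -0.52, SE 0.29; adjusted p = 0.333, edgeR). Lhx1 stood at 7.99, 16.7 and 12.3 CPM against 17.3 to 24.6 CPM, all 3 below the controls (log2 fold change -0.63, SE 0.24; adjusted p = 0.178, edgeR). Cited1 stood at 0.891, 2.71 and 1.07 CPM against 2.03 to 4.53 CPM (log2 fold change -1.15, SE 0.46; adjusted p = 0.191, edgeR). Pou3f3, at 109 to 120.2 CPM against 129.6 to 157 CPM, was lower in all 3 mice, with a log2 fold change of -0.28 (SE 0.12; adjusted p = 0.235, edgeR). Emx2 overlapped, at 36.6 to 40.1 CPM against 34.8 to 50.1 CPM. Of the 8 genes 3, Sox4, Lhx1 and Pou3f3, did not overlap between groups, against 17.4% of all genes.

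Mouse 2 was the closest i-TERTci mouse to the control mean for 6 of the 8 genes and within the control range for 5. Calls made after leaving out this mouse thus follow a choice by the same values. Without it, edgeR called 5 of the 8 genes, beside 23.6% of all genes: Sox9 (3.67, adjusted p = 0.00166), Sox4 (1.75, adjusted p = 6.62e-04) and Sox11 (2.27, adjusted p = 0.00210) higher and Lhx1 (-0.90, adjusted p = 0.0200) and Cited1 (-1.79, adjusted p = 0.0110) lower. Its Tert count, 1086, was close to the 1070 of mouse 1, while mouse 3 had 230.

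Several marker lists also differed between the 3 i-TERTci mice, not all in the same order. Summed proximal tubule markers were 4460, 40724 and 20899 CPM in i-TERTci mice 1, 2 and 3, against 36591 to 39169 CPM in actin-rtTA+ mice. Summed macrophage markers were 1509, 234 and 783 CPM against 155 to 232 CPM, and cell cycle genes 212 and 207 CPM in mice 1 and 3 against 46.8 to 62.0 CPM, with mouse 2 inside that range. The podocyte sums were 427, 1540 and 806 CPM, and the control range was 806 to 1014 CPM. Fibroblast and pericyte markers, at 2822, 690.0 and 2102 CPM, were above the control range of 385 to 569 CPM in all 3 mice. T and B cell markers were highest in mouse 2, at 72.4, 209 and 60.8 CPM against 18.7 to 21.9 CPM. Of 25 injured tubule genes, with a median log2 fold change of 1.57, edgeR called none, 22 had an unadjusted p under 0.05 and DESeq2 called 19, all higher. Of 27 proximal tubule differentiation genes, with a median of -0.76, edgeR called none, 5 had an unadjusted p under 0.05 and DESeq2 called 2, both lower. Without i-TERTci mouse 2, edgeR called 21 injured tubule genes higher and 13 proximal tubule genes lower. The part of these cell types in the values of the 8 genes was not tested.

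A difference of differences over 19 libraries set the i-TERTci effect against that of ADR at TERT WT/WT. None of the 8 genes was called by edgeR (0.00505% of 19783 genes) or by DESeq2 (0.303%), and none had an unadjusted p under 0.05 in edgeR (7.16%), while limma with voom quality weights called Hnf4a (adjusted p = 0.0224; 10.6% of all genes). The effects differed by -0.83 for Sox9 (SE 1.06), -0.36 for Sox4 (SE 0.48), -1.44 for Sox11 (SE 0.85), 0.50 for Hnf4a (SE 0.39) and 0.14 for Lhx1 (SE 0.28).

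Set side by side by group mean and without a test, across both experiments, the groups next to each other overlapped in nearly every gene. For Sox9 the order was TERT WT/WT ADR (20.0 CPM), i-TERTci (9.70), TERT KO/KO ADR (7.14), TERT KO/KO saline (1.45), TERT WT/WT saline (1.30) and actin-rtTA+ (1.11), and the only neighbours that did not overlap were the 2 TERT KO/KO groups. For Hnf4a the order was TERT WT/WT saline (904 CPM), actin-rtTA+ (811), TERT KO/KO saline (773), TERT KO/KO ADR (614), i-TERTci (557) and TERT WT/WT ADR (439), with every pair of neighbours overlapping. Cited1 split by experiment: all 7 mixed-background mice had 0.891 to 4.53 CPM and all 12 Balb/c kidney libraries 0.168 to 0.508 CPM, where experiment and strain cannot be told apart, so the i-TERTci and TERT KO/KO saline groups were neighbours without overlap.

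Genes whose pattern over the 19 libraries was most like each of the 5 called genes were found by the root mean square difference of centred log2(CPM + 0.5) among 15594 protein-coding genes, as a description with no test. For Sox9 these were Cxcl17 (0.32), a mucosal chemokine, and Il34 (0.36), a ligand of the macrophage receptor CSF1R. For Sox4 they were Pea15a and Plp2 (0.22 each), and for Sox11 Spaca7 (0.28) and Cldn6 (0.30), a tight junction claudin. For Lhx1 they were Rnf152 (0.13) and Lmo7 (0.15). For Hnf4a they were Slc25a15 (0.09), the mitochondrial ornithine transporter, and Fads2 (0.12), a fatty acid desaturase. The root mean square spread of the gene itself was 1.51 for Sox9, 0.78 for Sox4, 1.11 for Sox11, 0.39 for Lhx1 and 0.51 for Hnf4a. A gene with less spread can have smaller differences, so the values do not rank closeness between the 5 genes. All points share the libraries and their scaling.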

How the data were processed

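Kidney RNA came from 20 mice (39323498 to 48399322 counts per library). The values deposited by the authors are unnormalised whole-number counts per gene. Per the labels and methods, reads were checked with FastQC, trimmed with Trimmomatic and aligned to mm10 with STAR; the counting tool and strand setting are not given in the sources used here. Symbols and coordinates came from GENCODE M21. The 8 genes, lists and markers were chosen with earlier results of these data known. The second library with the label TERT KO/KO ADR, which was liver-like, was left out of means and main fits.

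Each experiment (7 and 12 libraries) was fitted with edgeR 4.0.16 in R 4.3.3 (TMM, filterByExpr, robust quasi-likelihood F test, 1 coefficient per group), with Benjamini-Hochberg adjustment over all genes tested and calls at an adjusted p under 0.05. The scripts were tested on simulated data. DESeq2 1.42.0, limma 3.58.1 (voom with quality weights), other scalings and filters, and each library left out were alternatives. Named genes were all 8 genes in every library, up to 4 of the most abundant genes of a list, any tested relative or neighbour, and the genes most alike in pattern. 1 gene is not reported here. Mice were not paired by replicate number in the main fits. The p-values measure the spread between mice. At this depth precision is limited mainly by the number of mice. Low counts add to this for Cited1, and for Sox9 and Sox11 in control and saline mice.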

Additional observations from a re-analysis of the deposited data

Results flagged for a closer look

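Lhx1 in actin-rtTA+ mouse 1, at 24.6 CPM, lay far above the other 3 control mice (17.3 to 18.3 CPM) by Dixon's test; 16 groups of 4 libraries were examined, and chance marks about 1 in 20. In the liver-like library, the second with the label TERT KO/KO ADR, which entered no comparison of the main fits, Sox9 at 11.3 CPM and Hnf4a at 1341 CPM were above all 7 saline libraries.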

How the results depend on the processing

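Counts of the 8 genes called moved with these alternatives, and so did the share of all genes tested that was called. For i-TERTci against actin-rtTA+ mice that share was 0.00564% by edgeR, 10.9% with DESeq2 and 34% with limma voom weights. For ADR in TERT WT/WT mice it was 27.1% by edgeR, 4.82% with the liver-like library and 48.6% with limma voom weights. No share is given for both experiments in 1 fit, only the groups compared, the replicate block or most libraries left out. For i-TERTci against actin-rtTA+ mice the count of 0 became 3 with DESeq2, 3 with both experiments in 1 fit and 7 with limma voom weights, and ran from 0 to 5 over each library left out, with 5 without i-TERTci mouse 2. For ADR in TERT WT/WT mice, 5 became 1 with the liver-like library and 7 with limma voom weights, and ran from 4 (without ADR mouse 2 or 3) to 6 (without saline mouse 1) over libraries left out. For ADR in TERT KO/KO mice, 0 became 1 with DESeq2 and 1 with only the groups compared, and ran from 0 to 2 over libraries left out, with 2 without TERT WT/WT ADR mouse 1. For the genotypes, 0 became 3 in saline with limma voom weights, and ran from 0 to 4 after ADR and from 0 to 3 in the interaction over libraries left out, the higher counts without TERT WT/WT ADR mouse 1. The difference of the i-TERTci and ADR effects went from 0 to 1 with limma voom weights. The cause was not tested. No called value reversed.

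The replicate block left 5 genes called for ADR in TERT WT/WT mice and 0 in the other comparisons. Same-numbered mice did not deviate together, with correlations of -0.34 to 0.36 and no set of 3 pairs all above 0.1. When a group is left with 1 mouse, that mouse is assumed to vary like the others. Counts of Cited1, and of Sox9 and Sox11 in control and saline mice, are low, so small differences in them were not detectable at this depth.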
